A study of Mus musculus with 4 samples.

Results

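The peaks described here are LMO2 sites in pro-B(+) cells that the deposited annotation placed between genes and at most 50 kb from a transcription start site (TSS). A peak was a member when the deposited annotation called it intergenic, when its centre lay more than 2.5 kb and at most 50 kb from the nearest TSS, and when the detailed annotation named no repeat element. Of the 1585 peaks in the deposited list, 387 met this rule (24.4%, Wilson 95% interval 22.4 to 26.6). The other 1198 peaks comprised 222 peaks at most 2.5 kb from a TSS, 486 intronic peaks, 199 intergenic peaks beyond 50 kb, 241 peaks in annotated repeats and 50 others. The rule used position and annotation, and used neither the peak score nor the sequence.

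Pro-B(+) cells are a line of Ebf1-deficient pro-B cells of C57BL6/J background, grown on OP9 stroma with SCF, IL-7 and Flt3L at 10 ng/ml each. The series holds 2 LMO2 chromatin immunoprecipitation (ChIP) samples, each made with 3 anti-LMO2 antibodies at 2 μg each, and 2 input samples. All samples lacked Ebf1 and came from 1 cell line, and no cells without LMO2 were among them. The list gives 1 peak score and 1 focus ratio per peak for both replicates together, so neither a spread between replicates nor a depth was available, and the intervals below cover only the number of peaks or windows counted.

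LMO2 is a small LIM-domain adaptor protein that does not bind DNA by itself. It bridges LDB1 to DNA-binding partners, among them bHLH proteins such as TAL1 or LYL1 paired with E proteins, which recognise E-boxes, and GATA factors. RUNX and ETS factors are DNA-binding regulators of blood cell genes that often occupy the same regulatory elements. Intergenic elements near genes include enhancers, which can act on a gene from either side of its TSS and over some distance, so the nearest gene is a label of position and not a shown target.

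The sequences below are the plus strand of mm10 over whole peaks, and were chosen to show what the peaks of high score and those at loci of known lymphoid or myeloid genes contain. Capitals mark matches on either strand to TGTGGT (RUNX, ACCACA on the other strand), CTTCCT (ETS, AGGAAG on the other strand) and CAGCTG (an E-box, the same on both strands). C130026L21Rik (chr5:111553537-111553743) names the peak at the top of the score range, and Gm35978 (chr2:26513435-26513641) names the peak beside Notch1.
C130026L21Rik: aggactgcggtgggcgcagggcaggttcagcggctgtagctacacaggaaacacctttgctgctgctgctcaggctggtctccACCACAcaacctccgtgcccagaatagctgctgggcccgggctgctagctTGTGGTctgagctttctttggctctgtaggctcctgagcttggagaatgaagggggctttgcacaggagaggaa
Gm35978: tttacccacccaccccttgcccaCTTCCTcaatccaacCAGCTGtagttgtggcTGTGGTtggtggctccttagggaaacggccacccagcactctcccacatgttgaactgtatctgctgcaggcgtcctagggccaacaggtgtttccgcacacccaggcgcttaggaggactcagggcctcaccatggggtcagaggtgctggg
Neighbouring matches could touch or overlap. In the Atp13a2 peak (chr4:140983496-140983702) the E-box and the RUNX word shared bases, and in the peak inside Spi1 (chr2:91082967-91083173) a RUNX word and an ETS word did.
Atp13a2: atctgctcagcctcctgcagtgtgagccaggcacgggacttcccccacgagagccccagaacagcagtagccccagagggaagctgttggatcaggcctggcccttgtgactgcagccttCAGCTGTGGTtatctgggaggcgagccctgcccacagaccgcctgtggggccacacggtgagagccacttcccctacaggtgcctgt
Spi1: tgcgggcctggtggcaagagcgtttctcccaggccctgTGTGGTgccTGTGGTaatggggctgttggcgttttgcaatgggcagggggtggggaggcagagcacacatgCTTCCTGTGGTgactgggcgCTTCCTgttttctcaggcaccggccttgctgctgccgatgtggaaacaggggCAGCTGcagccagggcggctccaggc
The Adcy9 peak (chr16:4436848-4437054) is shown because it held none of the 3 words in spite of a high score. The last 4 sequences are those of the Cbfa2t3 pair (chr8:122701877-122702083 and chr8:122702456-122702662), the peak between the T cell receptor alpha constant segment and Dad1 (chr14:54227344-54227550), and the peak on the annotated T cell receptor gamma enhancer (chr13:19356236-19356442).
Adcy9: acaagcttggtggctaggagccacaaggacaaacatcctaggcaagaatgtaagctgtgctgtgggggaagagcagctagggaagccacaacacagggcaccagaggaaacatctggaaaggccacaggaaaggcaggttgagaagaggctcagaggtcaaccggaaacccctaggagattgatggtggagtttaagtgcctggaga
Cbfa2t3 near: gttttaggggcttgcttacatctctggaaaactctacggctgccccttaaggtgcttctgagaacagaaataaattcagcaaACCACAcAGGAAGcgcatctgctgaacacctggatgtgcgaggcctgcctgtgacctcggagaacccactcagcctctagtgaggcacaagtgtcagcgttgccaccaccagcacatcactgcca
Cbfa2t3 far: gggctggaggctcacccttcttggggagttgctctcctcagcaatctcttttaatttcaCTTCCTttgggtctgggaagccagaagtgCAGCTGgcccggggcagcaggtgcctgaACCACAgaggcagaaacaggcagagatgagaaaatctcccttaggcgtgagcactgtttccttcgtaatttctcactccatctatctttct
Dad1: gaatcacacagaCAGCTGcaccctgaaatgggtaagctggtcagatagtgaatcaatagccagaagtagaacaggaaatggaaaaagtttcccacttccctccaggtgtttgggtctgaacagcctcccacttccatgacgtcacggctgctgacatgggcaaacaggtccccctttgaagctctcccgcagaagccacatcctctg
Tcrg enhancer: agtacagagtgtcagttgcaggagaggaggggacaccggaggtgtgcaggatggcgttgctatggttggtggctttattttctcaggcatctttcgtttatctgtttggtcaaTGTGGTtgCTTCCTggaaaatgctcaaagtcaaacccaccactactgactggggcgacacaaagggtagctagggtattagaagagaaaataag

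The score of a peak is the authors' normalized HOMER score over both replicates, and its focus ratio, between 0 and 1, measures how tightly its reads are placed about 1 point. The scores of the 387 peaks ran from 15 to 123.9 with a median of 20.9 (95% interval 19.8 to 22.1), and the middle of the distribution was narrow, with quartiles at 17.25 and 28.15. The median over the other 1198 peaks was 20.2 (19.8 to 20.7), and the intervals overlapped. A score under 20 was held by 180 peaks (46.5%). A score of at least 30 was held by 88 (22.7%, 18.8 to 27.2), against 21.2% of the other peaks, a difference of 1.54 percentage points whose interval included 0 (Newcombe 95% interval -3.04 to 6.49). Peaks at TSSs were the class that stood apart: their median score was 18.85 (17.7 to 19.8), and 13.1% of them reached 30, which was 9.68 points (3.28 to 15.5) below the intergenic peaks within 50 kb.

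The highest score was that of C130026L21Rik, a non-coding RNA gene, whose peak lay 27921 bp upstream of the TSS. Another peak, with a score of 56.0, lay 17520 bp farther upstream. No protein-coding TSS lay within 50 kb of the stronger peak. The Gm35978 peak had a score of 114.5, and its only protein-coding TSS within 50 kb was that of Notch1, the receptor whose signal starts T-lineage specification, at 9716 bp. The TSS of the non-coding gene Gm35978 was slightly nearer, at 9611 bp. All 3 words stood near the left end of the peak.

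Atp13a2, which encodes a lysosomal transporter, had a peak of score 105 only 3274 bp upstream. The 1700017B05Rik peak had a score of 96.2 and held ETS words but no RUNX word and no E-box. Adcy9, an adenylyl cyclase gene, had a peak of score 94.7 and a focus ratio of 0.888. The reference transcripts of Adcy9 extended over this peak, whereas the deposited annotation placed it 16453 bp upstream. In this reference, which also holds predicted transcripts, 103 of the 387 peaks lay inside a gene body. The scores that followed were 85.1 at Pisd-ps1, 81.4 at Dad1, 73.8 at Gem, 72.9 at Ap1m1, 71.9 at Lmna and 68.2 at Tifab. Lmna encodes the A-type lamins and Gem a small GTP-binding protein. Next came Rcbtb2 at 59.0, Gm10825 at 56.8, Treh at 55.5 and B4galt1 at 55.2. A pair of identical peaks at Mir6546 and the Chrna9 peak followed at 54.2 each. Members made up 27 of the 100 highest scores of the whole list, beside a share of 24.4% of all its peaks, and this count includes the copies described next.

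Some values were shared by copies of the same sequence. Of the 387 peaks, 25 (6.46%) consisted mainly of 50-base words found more than once in the reference, and 10 had the same 207 bases as another listed peak. Erdr1 on chromosome Y and G530011O06Rik on chromosome X carried identical sequence, the same score of 107.2 and the same focus ratio of 0.584, the lowest of all members. A further chromosome Y peak of G530011O06Rik with a score of 86.2 was identical to a peak on chromosome X outside the rule. The peaks of Slc25a37 and Synb on chromosome 14, both with a score of 22.5, were identical as well. These pairs and the Mir6546 pair cannot be counted as separate observations, and the authors kept reads that matched up to 10 places. The median score was 21.8 in the 25 peaks of repeated sequence and 20.6 in the other 362.

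**Figure D1:**
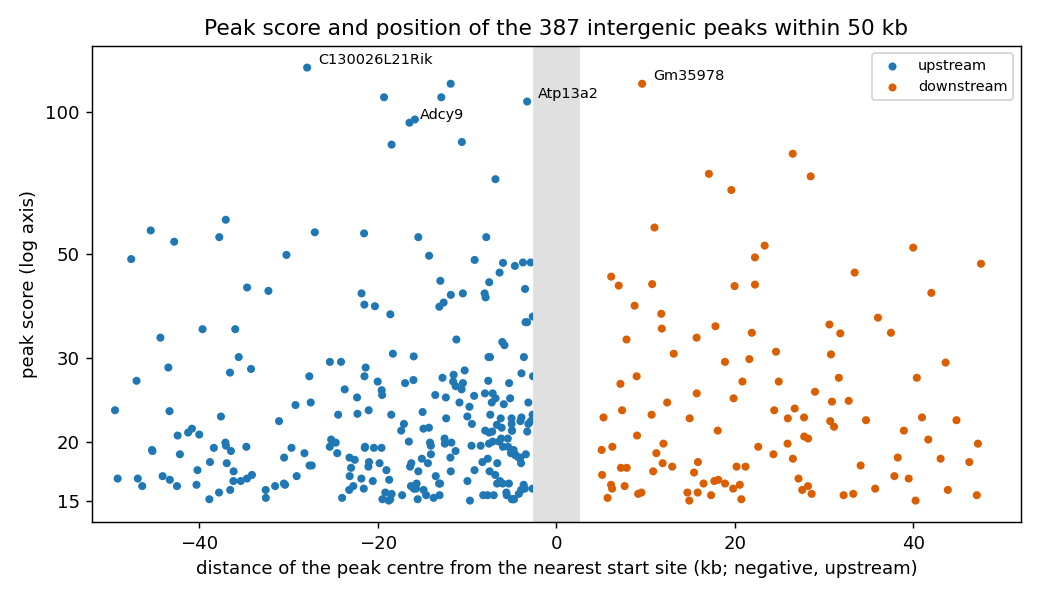
Each point is 1 of the 387 peaks, with its distance from the nearest start site on the horizontal axis (kb, upstream negative, grey for the excluded 2.5 kb on each side) and its peak score on a log axis. Scores of 15 to 30 fill the whole range of distances on both sides, and of the 6 highest scores only Gm35978 lies downstream.

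The score was nearly unrelated to distance over the 387 peaks (Spearman's rho -0.0325, a description over peaks of 1 list). The focus ratio had a median of 0.785 (0.777 to 0.795) and ranged from 0.584 to 0.917. In the rest of the list the median was 0.789 (0.786 to 0.794), and at TSSs it was 0.757 (0.745 to 0.768), so the intergenic peaks had higher focus ratios than those at TSSs, while the intervals of the members and of the rest of the list overlapped. Score and focus ratio rose together weakly (rho 0.230): the 97 peaks with scores of at least 28.3 had a median focus ratio of 0.822, against 0.772 in the 97 peaks with scores of at most 17.2.

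The distances had a median of 16943 bp and ran from 2615 to 49441 bp, and 116 peaks lay within 10 kb. To set this beside what the genome offers, a grid of positions 1 kb apart was drawn over the reference, and the 326107 positions that were intergenic, 2.5 to 50 kb from a TSS and not in a masked repeat were kept. Set against this count there were 1.19 peaks per 1000 positions, a ratio of counts, because the peaks were not placed on the grid. Some peaks, such as the one inside Spi1, lay where the grid had no positions. The ratio was highest between 5 and 10 kb, with 81 peaks and 1.54 per 1000 positions. It fell with distance to 0.836 per 1000 between 40 and 50 kb, where 36 peaks lay. Between 5 and 10 kb the peaks' share of 20.9% (17.2 to 25.3) lay above the 16.2% of the positions, and between 40 and 50 kb their share of 9.30% (6.80 to 12.6) lay below the 13.2% of the positions. The bin nearest to the TSS, 2.5 to 5 kb, held 35 peaks at 1.15 per 1000, close to the mean. Median scores in the 6 bins lay between 19.75 and 21.1, with overlapping intervals.

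Upstream of the nearest TSS lay 270 of the 387 peaks (69.8%, 65.0 to 74.1). Of the other peaks of the list 38.8% lay upstream, a difference of 30.9 points (25.4 to 36.1). Of the reference positions, however, 226244 of 326107 (69.4%) lay upstream too. A position downstream of its nearest TSS often falls inside the gene and is then not intergenic, so the rule itself favours the upstream side, and the interval of the peaks included the share of the positions. Intronic peaks, for which the geometry is the opposite, were upstream in 22.8%, and intergenic peaks beyond 50 kb in 50.8%. By bin the peaks were upstream in 59.7 to 74.1% from 5 kb outwards, against 59.6 to 77.7% of the positions. All 35 peaks between 2.5 and 5 kb lay upstream, against 85.1% of the positions there.

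**Figure D2:**
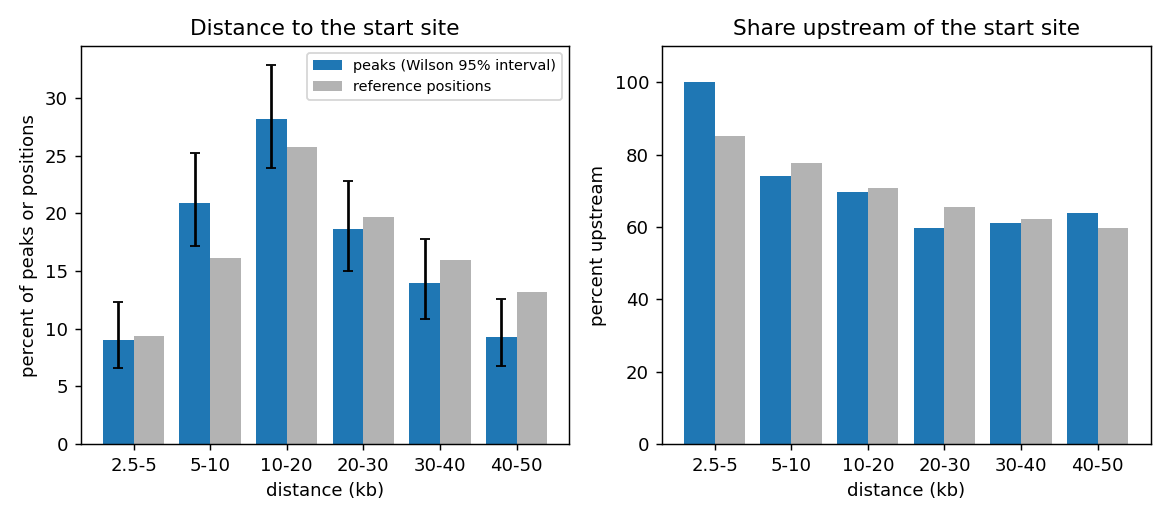
Left, the percent of the 387 peaks and of the 326107 reference positions in each bin of distance to the nearest start site (kb), with Wilson 95% intervals on the peaks; right, the percent of each that lay upstream. The peaks exceed the positions most between 5 and 10 kb (20.9 against 16.2%), fall short of them between 40 and 50 kb (9.30 against 13.2%), and follow them in the share upstream apart from the first bin.

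The upstream peaks lay nearer to their TSS than the downstream ones, with medians of 14935 and 21191 bp, and so did the reference positions, with 17468 and 23987 bp. Median scores were 20.45 upstream (19.6 to 21.8) and 21.5 downstream (19.5 to 23.3). The difference in motif content between the sides was not tested. RUNX words were in 60.0% of upstream and 47.9% of downstream peaks, ETS words in 48.9% and 61.5%, and E-boxes in 33.3% and 36.8%.

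The DNA of the peaks was described by searching both strands of each whole peak of 207 bp. The paper had already reported RUNX, ETS and bHLH motifs as enriched over the whole list, which includes these peaks. The excess of RUNX, ETS and E-box words given here and below is therefore not independent of that result. It describes how often the words occur in this part of the list. The RUNX word TGTGGT was present in 218 peaks (56.3%, 51.4 to 61.2). In 774 flanking windows of the same length centred 1 kb to either side it was present in 16.3%, and at the reference positions in 14.98%. The ETS word CTTCCT was present in 204 peaks (52.7%, 47.7 to 57.6), against 24.5% (21.6 to 27.7) of the flanks and 23.7% of the positions. The E-box CAGCTG was present in 133 peaks (34.4%, 29.8 to 39.2), against 9.30% (7.45 to 11.6) of the flanks and 9.07% of the positions. Over 264761 windows spaced 10 kb apart along the genome the shares were 14.1%, 21.7% and 7.45%.

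GATA words, which other LMO2 partners recognise, showed no such excess over the flanks. The words AGATAA or TGATAA were in 17.3% of the peaks (13.9 to 21.4), 15.9% of the flanks (13.5 to 18.6) and 23.6% of the positions. The composite of an E-box end and a GATA word, CTG and GATA separated by 7 or 8 bases, was in 14 peaks (3.62%, 2.17 to 5.98), 3.23% of the flanks and 4.89% of the positions. The EBF word CCCNNGGGA was in 16 peaks (4.13%, 2.56 to 6.61) and 3.10% of the flanks. The TCF word CTTTGA was in 9.30% of the peaks (6.80 to 12.6) and 12.5% of the flanks (10.4 to 15.1), and the AP-1 word TGANTCA in 8.53% and 7.11%. The peaks were richer in G and C than their surroundings, with a median of 53.1% against 47.3% in the flanks and 43.5% at the positions, and the part of base composition in the motif shares was not tested.

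**Figure D3:**
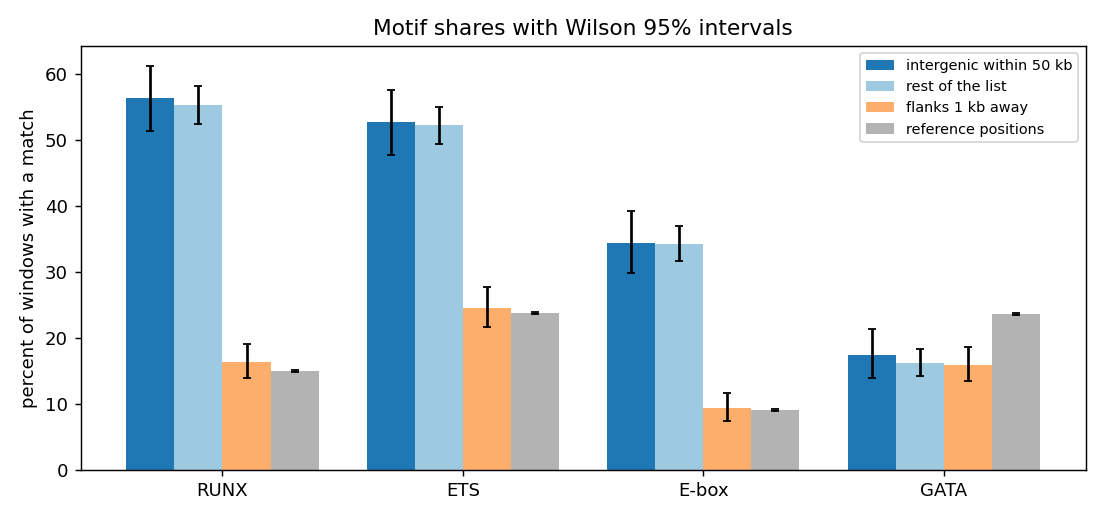
Bars give the percent of 207-bp windows with a match to each word in the 387 intergenic peaks within 50 kb, the rest of the list, windows 1 kb to either side of the 387 peaks, and reference positions, with Wilson 95% intervals. RUNX, ETS and E-box bars of the 387 peaks stand at 56.3, 52.7 and 34.4%, level with the rest of the list and above both backgrounds, while the GATA bar stands at 17.3%, level with the flanks.

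The matches were concentrated at the peak centres. In the 2 central bins of 50 bp a RUNX word lay in 20.4% of the peaks on average, against 4.06% in the bins more than 500 bp away, a ratio of 5.03. For the ETS word the values were 21.1% and 7.08% (ratio 2.97), and for the E-box 12.4% and 2.88% (ratio 4.30). All 2080 non-redundant words of 6 bases were counted in the peaks and in a regularly spaced part of the reference positions. By the difference in share TGTGGT ranked 1st, CTTCCT 4th and CAGCTG 6th. CTGTGG and GTGGTT, which overlap the RUNX word, were 2nd and 3rd. At the other end stood A and T rich words such as TTTATT, in 7.49% of the peaks and 25.8% of these positions. The ratio of shares, the measure first planned, gave another order. By ratio CTGCGG (17.8% against 2.06%, ratio 8.65) stood above TGTGGT (3.80), CAGCTG (3.80) and CTTCCT (2.20).

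**Figure D4:**
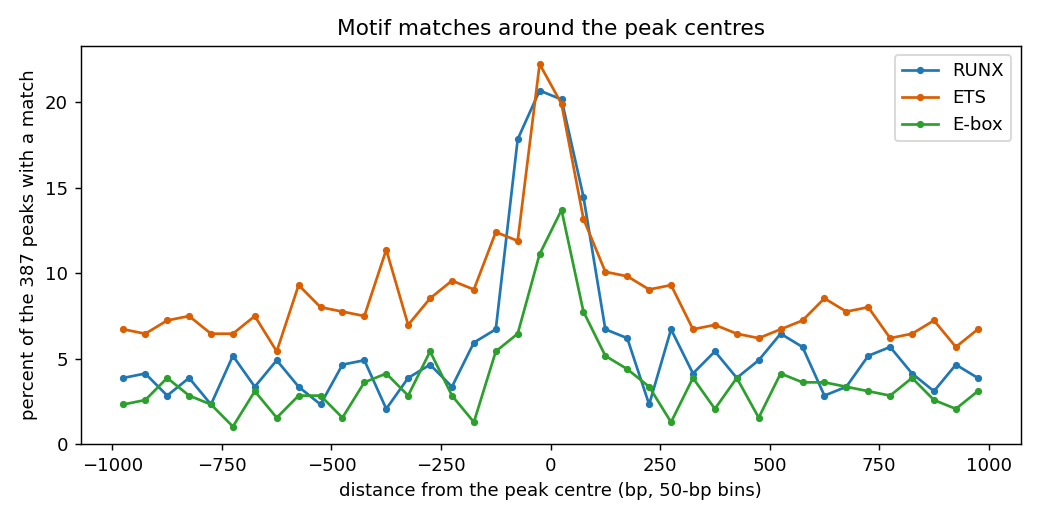
The percent of the 387 peaks with a RUNX, ETS or E-box match is plotted in bins of 50 bp from 1000 bp before to 1000 bp after the peak centre. All 3 lines rise within about 100 bp of the centre, to averages of 20.4, 21.1 and 12.4% in the 2 central bins, and are lower beyond it.

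Combinations of the words were counted as well. All 3 words were present in 33 peaks (8.53%, 6.14 to 11.7), against 1.29% of the flanks (0.703 to 2.36) and 0.354% of the reference positions. None of them was present in 53 peaks (13.7%, 10.6 to 17.5), against 57.8% of the flanks. Exactly 2 of the 3 were present in 155 peaks, the commonest state. Scores did not follow the words: the median was 19.4 (16.6 to 26.8) with all 3, 19.8 (18 to 23.3) with none, 21.3 with a RUNX word and 20.0 without. The focus ratio was highest with all 3 words (median 0.824) and lowest with none (0.761). Compared with the rest of the list the shares differed by 1.03 points for RUNX (-4.68 to 6.65), 0.499 for ETS (-5.22 to 6.18) and 0.115 for the E-box (-5.20 to 5.65). Against peaks at TSSs they differed for RUNX (34.7% at TSSs, difference 21.6 points, 13.5 to 29.3) and ETS (41.0%, difference 11.7, 3.48 to 19.7), whereas the E-box did not differ beyond its interval (33.8%, difference 0.583, -7.31 to 8.23).

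The peaks often had company. Another listed peak lay within 50 kb of 185 of them (47.8%, 42.9 to 52.8), against 38.1% of the rest of the list, a difference of 9.66 points (3.99 to 15.3). The share was 34.8% of the intronic peaks, a difference of 13.0 points (6.46 to 19.5). For the intergenic peaks beyond 50 kb (42.2%, difference 5.59, -2.93 to 13.9), the peaks at TSSs (41.4%, difference 6.36, -1.85 to 14.4) and the peaks in repeats (40.7%, difference 7.14, -0.861 to 14.9) the interval of the difference included 0. These intervals treat peaks as separate, although neighbours count each other and identical copies are included, so they understate the uncertainty. Without the peaks of repeated sequence the share of members with a listed peak within 50 kb was 45.3%. Another member lay within 50 kb of 128 peaks. Chained at this distance, the peaks formed 58 groups, 49 of them pairs, 6 of 3 peaks and 3 of 4 peaks, and left 259 single. Centres of neighbouring members were at most 10 kb apart in 39 cases, with a median gap of 2788 bp, and in 34 of these both peaks had the same nearest gene. The gap was under 1 kb in 6 cases, which were named after their values were seen. Besides Cbfa2t3 and the BC107364 peaks these were Hgfac, with scores of 20.3 and 15.6 at 584 bp from each other, Adgre5, the gene of the adhesion receptor CD97, with 24.7 and 30.2 at 786 bp, and Rasa2, a RAS GTPase-activating protein gene, with 15.1 and 25.1 at 916 bp. Among pairs with wider gaps, also named after their values were seen, scores differed widely in some and little in others. At Sik1, a kinase gene, peaks of 42.7 and 17.7 lay 1222 bp apart. At Npc2, a lysosomal cholesterol transfer gene, peaks of 49.1 and 15.1 lay 1527 bp apart. At Mir142, a microRNA gene, peaks of 21 and 22.4 lay 2168 bp apart, and at Lbr peaks of 24.2 and 22.8 lay 7645 bp apart.

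The 371 peaks with a gene name had 316 nearest genes. Of these, 268 genes had 1 peak, 42 had 2, 5 had 3 and 1 had 4. Rcbtb2, a gene of an RCC1 and BTB domain protein, had the most, all upstream: scores of 59.0 at 37034 bp, 29.5 at 25370 bp, 18 at 19802 bp and 37.2 at 18599 bp. Only the peak of score 18 lacked all 3 words. Ccr9, the receptor for CCL25 that guides progenitors to the thymus, had 3 upstream peaks with scores of 39.4, 28.3 and 15.5 at 12626, 10274 and 4202 bp. Each of the 3 held a RUNX word, and the one nearest to the TSS held all 3 words. Btg2, an antiproliferative gene, had peaks of score 37.3 and 16.6 at 11755 and 18145 bp downstream and one of 19.6 at 14060 bp upstream. Zfp36l2, which encodes an RNA-binding protein that destabilises AU-rich transcripts, had 3 downstream peaks with scores of 26.5, 18.4 and 16.2. Asprv1 had 3 upstream peaks with scores of 21.1, 19.4 and 15, each with a RUNX and an ETS word. The 3 peaks of BC107364, with scores of 17, 16.7 and 16.5, lay within 2.5 kb of each other, held none of the words and had focus ratios of only 0.599 to 0.618.

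**Figure D5:**
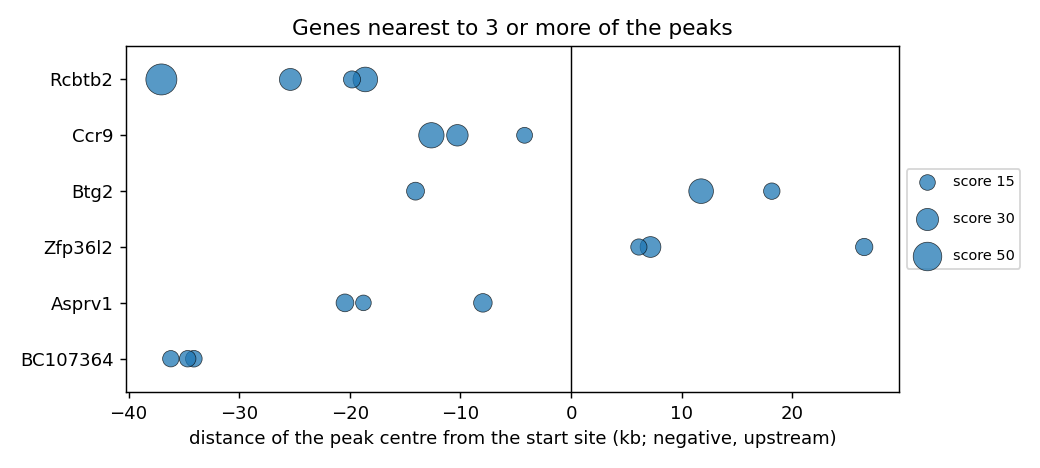
Each circle is a peak of a gene nearest to 3 or more of the peaks, placed by its distance from the start site (kb, upstream negative), with an area proportional to the peak score. The 4 Rcbtb2 peaks and the 3 Ccr9 peaks lie upstream with scores up to 59.0 and 39.4, the Zfp36l2 peaks lie downstream, and the Btg2 peaks lie on both sides.

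A nearest gene that codes for protein was listed for 296 of the 371 peaks (79.8%), and a non-coding RNA for 72 (19.4%). In the rest of the list 84.3% were protein-coding, a difference of -4.56 points (-9.39 to -0.151). The nearest gene was often not the only candidate: at least 2 protein-coding genes had a TSS within 50 kb of 179 peaks, 1 gene of 166 and none of 42. Of the 316 genes, 58 were also nearest to a listed peak of another class, most often an intergenic peak beyond 50 kb (23 genes) or a peak in a repeat (17 genes).

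Genes of known roles were read from 7 lists. For comparison, 243 of the 21774 protein-coding genes of the reference (1.12%) were the nearest gene of a member and 930 (4.27%) that of any listed peak. A TSS within 50 kb of a member, the measure for the genes named below by their start, was held by 591 (2.71%). No test of the lists against this background was run. Of 19 LMO2 partner genes, Cbfa2t3, which encodes the corepressor ETO2 that joins LMO2 complexes, was the only nearest gene of a member. Its peaks had scores of 47.9 and 35.8 at 2871 and 3450 bp upstream, 579 bp apart, and 3 peaks of other classes were also nearest to it. A RUNX word and an ETS word stood 1 base apart in the nearer peak, and all 3 words were in the farther one. Lyl1 and Runx1 were nearest only to peaks of other classes.

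Of 39 haematopoietic transcription factor genes, 3 were the nearest gene of a member, all with scores below the members’ median: Runx3 with 20.7 at 40007 bp upstream, Klf2 with 15.8 at 23204 bp upstream and Egr1 with 15.1 at 4816 bp upstream. Another 11 were nearest only to peaks of other classes. The start sites of Spi1 and Cebpa, both regulators of myeloid cells, lay within 50 kb of a member that the list gave to another gene. The Spi1 case turned on the annotation. The list placed this peak of score 27.3 at 12755 bp upstream of Slc39a13. In the reference it lay inside the Spi1 gene, 665 bp after the start of 1 curated Spi1 transcript and 13608 and 13630 bp before those of the others, and it held 3 RUNX words, 2 ETS words and an E-box. Spi1 encodes PU.1, an ETS factor. By the reference start of the longer transcript the peak would not have met the 2.5 kb limit.

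Of 29 T-lineage genes, Tcf7, Cd28 and Cd44 were nearest genes, and Lef1, Cd2, Lat and Tox were nearest only to peaks of other classes. The Tcf7 peak, at 35583 bp upstream of the gene for TCF1, had a score of 30.2 and was among the 97 highest scores of the members. The paper had already reported an LMO2 site at about this distance upstream of Tcf7, overlapping a binding site of RBPJ. The peak held 1 RUNX word and 2 E-boxes and no ETS word. Cd28, the costimulatory receptor, had a peak of score 28.7 at 43468 bp upstream, and Cd44, the adhesion receptor that marks early thymic progenitors, one of 26.9 at 47031 bp upstream. Both had a RUNX or an ETS word and no E-box. Of 22 Notch pathway genes, Lfng, a glycosyltransferase that modifies Notch receptors, had peaks of score 22.8 and 15.6 at 10671 and 9532 bp downstream. The Notch1 start was near the Gm35978 peak described above, and that of Mfng, a related enzyme, was 42808 bp from a peak of score 18.5. Maml3 was nearest only to peaks of other classes.

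Of 24 B-lineage genes none was the nearest gene of a member, and 3 (Bach2, Spib and Ptprc) were nearest to listed peaks of other classes. The Syk start lay 16487 and 44900 bp from members with scores of 19.5 and 15.4. Of 39 cytokine and chemokine receptor or signalling genes, 9 were nearest genes. The receptors were Cxcr5 (score 27.7), Il10ra (26.6), Tgfbr1 (22.6), Il2rb (21.8), Csf1r (21.4) and Il21r (15.4), beside Ccr9, and the feedback inhibitors were Socs3 (17) and Cish (16.3). Il2rb and Csf1r, the receptor chain for IL-2 and IL-15 and the receptor for M-CSF, had their peaks 17076 and 14273 bp upstream. Flt3, whose ligand was in the culture medium, had its start 26161 bp from a peak of score 42.1 that the list gave to no named gene, and Socs1 had its start 20788 and 29598 bp from peaks of score 19.6 and 30.7 near Prm1. Both these genes, Cxcr4, Tgfbr2 and Smad3 were nearest only to peaks of other classes. Of 19 survival genes, Pim1, a kinase gene induced by cytokines, had peaks of score 17.6 and 15.9 downstream. The start of Bbc3, a gene that promotes cell death, lay 14505 bp from a peak of score 18.1 near Ccdc9. Bcl2l11, Bmf, Birc3 and Pim2 were nearest only to peaks of other classes.

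The word receptor stood in the gene description of 33 of the 371 peaks with a description (8.89%, 6.40 to 12.2). In the rest of the list the share was 6.50% (5.19 to 8.12), and the intervals overlapped. Receptor genes outside the lists were named after their values were seen. Chrna9, a nicotinic acetylcholine receptor gene, had the highest score of them, 54.2. Prlr and Fzd9 were among the lowest, at 15.8 and 15.2. Ptger2, a prostaglandin E2 receptor gene, had a peak of score 52. Ifnar2, a chain of the type I interferon receptor, had peaks of 47.8 and 21.1, and Lifr, the receptor for leukaemia inhibitory factor, had peaks of 33.2 and 19.9.

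Annotated regulatory features of the reference overlapped 5 of the 387 peaks, which were singled out after their values were seen. No share for the rest of the list or for the reference positions was at hand. Whether 5 is many or few was therefore not tested. The Stard3nl peak had a score of only 16.7, and all of its 207 bp lay within the gamma 4 enhancer of Tcrg, the T cell receptor gamma locus, annotated at chr13:19356171-19356476. The peak began 3892 bp after the end of the constant segment Trgc4. Its RUNX and ETS words stood 2 bases apart. The peaks of Gng2, with scores of 41.2 and 15, both overlapped 1 annotated enhancer of the VISTA collection. The Btg2 peaks of score 16.6 and 19.6 overlapped another VISTA enhancer and a tested regulatory fragment. The Dad1 peak, with a score of 81.4, overlapped no such feature. It began 3145 bp after the end of Trac, the T cell receptor alpha constant segment, and ended 7934 bp from the 3′ end of Dad1, which is transcribed towards it. Of the RUNX, ETS and E-box words it held only an E-box, near its left end. Its sequence also held the TCF word CTTTGA and the AP-1 word TGANTCA. Its focus ratio was 0.736.

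Members lay on all chromosomes. Chromosome 17 had the most, 39 peaks with 30 nearest genes, which was 2.95 per 1000 reference positions against 1.19 over all chromosomes. Only 3 of them were mainly of repeated sequence. Their median score was 18.4, and 5 reached 30. Zfp36l2 had 3 of them, and Sik1, Mir7218, Mrps18a, Dynlt1b, Dynlt1f and Pim1 had 2 each. Chromosome Y, with 2 peaks, had a higher ratio of 3.31 per 1000 positions, and both were copies of sequence on X. Chromosome 19 had 4 peaks (0.496 per 1000 positions) and X had 2 (0.102). A CpG island was in the detailed annotation of 17 of the 387 peaks and of 10 others. These 17 had a median GC content of 69.6% and a RUNX word in 17.6%, with a median score of 19.6 and a median focus ratio of 0.718.

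Peaks on both sides of each limit of the rule are given as a description. Just inside the lower limit lay Gm4262 at 2615 bp with a score of 27.5 and Mir6376 at 2640 bp with 36.8, and just outside it Mgat1 at 2495 bp with 49.8. Just inside the upper limit lay 8430426J06Rik at 49441 bp with a score of 23.3 and Zc3h12a at 49146 bp with 16.7, and just outside it another Runx3 peak at 50582 bp with 26.1 and Larp1 at 50637 bp with 20.7.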

How the data were processed

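LMO2 ChIP and matched input DNA from pro-B(+) cells were sequenced in 2 replicates each. Per the labels and methods, the authors aligned the reads to mm10 with Bowtie v1.1.1, called peaks with HOMER against input, kept peaks reproducible between replicates (IDR) with a score of at least 15, and annotated them. The deposited list gives a score, a focus ratio (a fraction) and a distance to the TSS for each peak, pooled over replicates. The members and gene lists were chosen with earlier results of these data known.

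Here the list was split by annotation, and sequences, genes and regulatory features were read from RefSeq on GRCm38.p6, the build named mm10. Listed distances were within 10 bp of the nearest curated start in this reference for 327 members (84.5%). Motifs were searched over 207 bp on both strands in peaks, in windows 1 kb to each side, at grid positions and in genome windows. Shares have Wilson intervals, medians order-statistic intervals and differences Newcombe intervals, all at 95%. No test was run, because no value per replicate was available. Intervals cover counting error only. Named were the 20 highest members, genes with 3 or more members, listed genes, Tcf7 and peaks beside the limits, with the exceptions stated; 1 member among the highest is not reported here. The motif search was tested on simulated windows. Alternatives were other distance limits, a score of at least 30, repeats kept, and other motif forms. The scripts ran in Python 3.11.15 with SciPy 1.17.1 for intervals, pandas 2.3.3 for tables, numba 0.67.0 for word counts and Matplotlib 3.10.9 for plots.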

Additional observations from a re-analysis of the deposited data

How the results depend on the processing

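Of 64 values recomputed under alternatives, 48 stayed within the interval of the value as reported or, for counts, within 1.5 times of it. With an upper limit of 25 kb the share upstream was 74.4%. With a minimum score of 30 there were 88 peaks with 79 nearest genes, a median score of 42.75 and a median focus ratio of 0.823, of which 64.8% lay upstream, 58.0% had another listed peak within 50 kb and 39.8% held the E-box. This alternative keeps the high scores by construction. Another listed peak lay within 10 kb of 23.3% and within 100 kb of 59.7%. In the central 100 bases the RUNX, ETS and E-box words were in 37.5%, 36.4% and 23.0%. With wider consensus words (TGNGGT for RUNX, TTCCT for ETS, and CAGCTG or CAGGTG or CAGATG for the E-box) they were in 78.0%, 81.9% and 74.9%. The ratios to the reference positions were 3.76, 2.22 and 3.79 as reported, 5.07, 3.04 and 5.09 in the central bases and 2.21, 1.42 and 2.27 with the wider words. No paired analysis was possible because each peak has 1 pooled value, and leaving out a replicate could not be run for the same reason. The data hold 1 cell line and no depth.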

Other observations

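The spacing of the words was described after the sequences had been seen. A RUNX and an ETS word stood at most 10 bases apart in 22 peaks (5.68%, Wilson 95% interval 3.78 to 8.46), against 7.44% of the rest of the list and 0.473% of the reference positions. Among the 117 peaks with both words this was 18.8%, among such windows of the rest of the list 25.5%, and among such reference positions 13.6%. The words overlapped in 4 peaks, as in the one inside Spi1. A RUNX word and an E-box stood at most 10 bases apart in 15 peaks (3.88%, 2.36 to 6.30), against 3.76% of the rest of the list and 0.310% of the positions, and overlapped in 4, as in the Atp13a2 peak. Among windows with both, the close spacing was as frequent in the peaks (20.8%) as at the positions (21.2%). An ETS word and an E-box stood this close in 13 peaks (3.36%, 1.97 to 5.66), against 3.59% of the rest of the list and 0.301% of the positions. Among windows with both, this was 20.0% in the peaks and 13.1% at the positions.

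Of the 72 peaks whose nearest gene was a non-coding RNA, 39 had a protein-coding TSS within 50 kb. Over the peaks with a gene name and such a TSS, 332 in all, the symbol of the nearest protein-coding gene in the reference differed from the listed symbol in 58. The 332 include the 39 peaks above, whose listed gene was not protein-coding and so was not expected to match. A gene that the reference holds under another symbol also counted as different. The 58 is therefore not a count of wrongly assigned genes.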
